A study of Mus musculus with 33 samples.

Results

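Ifitm1, Ifitm2, Ifitm3 and Bst2 encode membrane proteins that restrict viruses and whose genes respond to interferon. They were followed here by symbol, through every probe annotated to them on the Illumina bead arrays of mouse bone marrow-derived macrophages (BMDM) and primary mouse embryonic fibroblasts (MEF). They are 4 of 17877 genes with a single symbol on either array type. All 4 passed the filter on dim probes in both cell types, where 9158 genes were tested in BMDM and 9104 in MEF. The study asked how the NF-kB subunit p50 shapes which genes answer LPS, CpG DNA and interferon beta (IFNb), and measured total RNA on 33 arrays. In BMDM, grown from C57BL/6 marrow in L929-conditioned medium, 10 arrays came from p50KO cells, 2 from IFNARKO cells, which lack the type I interferon receptor, and 11 from wild-type (WT) cells. The p50KO cells were unstimulated (1 array) or given LPS, CpG or IFNb for 1, 3 or 8 h (1 array each). The IFNARKO cells were unstimulated or given LPS for 3 h (1 array each). The WT cells had the same 9 stimulated conditions as p50KO and 2 unstimulated arrays, 1 labelled as the start of the CpG series and 1 as the start of the LPS series. In MEF, also C57BL/6, 4 p50KO arrays were unstimulated or given LPS for 1, 3 or 8 h, and 6 WT arrays covered the same 4 conditions plus an unstimulated array and an IFNb 8 h array of their own series. No agent dose is used here, and both knockouts are labelled as whole-cell genotypes with no driver or clone named.

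Type I interferon binds its receptor (Ifnar1 and Ifnar2), which activates the kinases Jak1 and Tyk2 and raises transcription of antiviral genes, many of which hold interferon-response elements in their promoters. LPS, through Toll-like receptor 4, makes macrophages secrete IFNb, so that many such genes rise in a second wave that depends on the receptor. Ifitm proteins are small membrane proteins that block fusion of enveloped viruses with the cell: Ifitm3 acts mainly in endosomes, Ifitm1 mainly at the cell surface, and Ifitm2 is a close relative of Ifitm3. Bst2, also called tetherin, holds newly budded enveloped virions on the surface of the infected cell. The p50 subunit of NF-kB has no transactivation domain of its own, and p50 homodimers can repress genes whose promoters they occupy.

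The promoters of the 4 genes differ in whether they hold the core of an interferon-response element, and 3 of them are shown for that reason, with the core in capitals. The sequences are from RefSeq on GRCm38.p6, read 5′ to 3′ on the strand of the gene. The Bst2 window is chr8:71537473-71537722 on the minus strand, Ifitm2 is chr7:140955962-140956211 on the minus strand, and Ifitm1 is chr7:140967826-140968075 on the plus strand, each 250 bases before the start given in the table.
Bst2: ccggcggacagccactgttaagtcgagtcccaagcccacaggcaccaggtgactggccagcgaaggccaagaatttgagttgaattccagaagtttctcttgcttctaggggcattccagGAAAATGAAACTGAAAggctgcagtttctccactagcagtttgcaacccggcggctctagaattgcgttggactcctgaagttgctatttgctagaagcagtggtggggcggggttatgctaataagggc
Ifitm2: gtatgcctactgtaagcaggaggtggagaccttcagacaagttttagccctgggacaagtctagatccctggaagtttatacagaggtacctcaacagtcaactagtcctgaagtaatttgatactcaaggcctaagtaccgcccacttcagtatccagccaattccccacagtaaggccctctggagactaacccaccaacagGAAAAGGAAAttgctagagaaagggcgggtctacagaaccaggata
Ifitm1: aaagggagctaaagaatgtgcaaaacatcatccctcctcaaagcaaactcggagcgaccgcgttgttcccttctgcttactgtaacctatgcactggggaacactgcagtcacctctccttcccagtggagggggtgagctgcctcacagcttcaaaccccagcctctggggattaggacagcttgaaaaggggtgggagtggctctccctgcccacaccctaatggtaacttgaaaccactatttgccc
Ifitm3, first 30 bases after the start: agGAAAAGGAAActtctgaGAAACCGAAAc

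The core searched, on both strands, is a pair of GAAA blocks with any 2 bases between them. In the 250 bases before the start it occurred as 2 overlapping matches in Bst2, with first bases at -130 and -124 from the start, and once in Ifitm2, at -46, and it was not in the windows of Ifitm1 or Ifitm3. Of 32851 RefSeq promoter windows of this length, 2.98% held it. With the 50 bases after the start included, a window chosen after the data were seen, Ifitm3 held 2 matches, at bases 3 and 20 of the stretch shown (chr7:141010715-141010744, minus strand), against 3.44% of all such windows, and Ifitm1 still held none. A stricter form, the core with a G in front, was in the Bst2 and Ifitm2 windows and in 0.962% of all windows, and with the 50 bases after the start also in Ifitm3, at base 2, and in 1.15% of all windows. The palindrome TTCNNNGAA was in the Bst2 window, at -136 and overlapping the core, and in 7.02% of all windows, and with the 50 bases after the start also in Ifitm3, at base 14, and in 8.3% of all windows. A kB-like motif, GGG and CC with any 5 bases between them, was in Bst2 and Ifitm3 and in 45.8% of all windows. The table gives 1 start per gene, and for Ifitm1 and Ifitm2 that start lies inside the annotated gene, so starts of other transcripts were not searched. Ifitm2, Ifitm1 and Ifitm3 lie in a cluster on chromosome 7 (140954837 to 140959686, 140967429 to 140969827, and 141009590 to 141010744), and Bst2 lies on chromosome 8 (71534255 to 71537472).

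Each condition and genotype had 1 array, apart from the unstimulated WT cells, so a difference between genotypes is a mean over matched conditions and its error is the spread between conditions. No label ties an array to its own culture or animal, and p-values therefore measure only the spread between these arrays, which may be technical. Summed bead intensity was 13100000 to 15020000 on the 8 arrays labelled CpG and 7430000 to 12450000 on the 13 WT and p50KO BMDM arrays labelled LPS or IFNb, so the array series is given beside each result it touches. The IFNARKO arrays, labelled LPS, had 13000000 unstimulated and 11230000 at LPS 3 h. The WT arrays labelled LPS that they are set against had 10090000 and 9350000. The p50KO array labelled LPS 1 h lay nearer to the WT array at LPS 3 h (root mean square difference 0.54 log2 over 12 immediate-early and early genes) than to the WT array at LPS 1 h (2.39), and it is treated as the array labelled 1 h. Over those genes the p50KO array at LPS 8 h differed by 0.90 from WT LPS 8 h and 0.96 from WT LPS 3 h. The p50 gene itself is not analysed here, and the labelled genotypes have no check from it. Macrophage markers were above background on all BMDM arrays (5 of 5 measured), and 6 of 8 fibroblast markers, Col1a1 and Pdgfra among them, were on none. In MEF all 8 fibroblast markers were above background on all 10 arrays, and so were 3 of 5 macrophage markers, while the macrophage marker Itgam was on none. Markers of granulocytes and their progenitors varied in BMDM, with summed levels of 8.49 to 11.38 log2 on p50KO arrays, 9.78 to 10.91 on IFNARKO arrays and 7.97 to 12.02 on WT arrays, and their part in the results was not tested. In bulk RNA, fewer cells of a type and less RNA per cell cannot be told apart.

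Levels are log2 of background-corrected, quantile-normalized bead intensity, with BMDM and MEF normalized separately, so no level is compared across cell types. Ifitm2, Ifitm3 and Bst2 had 1 probe each, the same on both array types, and each was above background (detection p under 0.01) on all 23 BMDM arrays and all 10 MEF arrays. Ifitm2 spanned 12.24 to 13.88 log2 in BMDM and 12.78 to 14.19 in MEF. Ifitm3 spanned 12.69 to 14.97 in BMDM and 12.86 to 14.33 in MEF. Bst2 spanned 8.85 to 11.57 in BMDM and 13.09 to 14.62 in MEF. Ifitm1 had 3 probes on each array type. In BMDM only ILMN_2814484 was above background on all 23 arrays, at raw intensities of 57.7 to 234.6, while ILMN_1245129 was so on 1 and ILMN_2640765 on none. In MEF only ILMN_1217180 was above background, on all 10 arrays, at raw intensities of 16042.7 to 36709.5. The Ifitm1 results therefore rest on 1 dim probe in BMDM and on 1 bright, different probe in MEF. The probe sequences are not used here, and cross-hybridisation between the closely related Ifitm2 and Ifitm3 transcripts was not tested.

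The 2 unstimulated WT BMDM arrays did not agree for every gene. Ifitm3 was 14.70 log2 on the array labelled CpG and 13.68 on the array labelled LPS, a difference of 1.02. Bst2 was 9.80 on the array labelled CpG and 9.26 on the array labelled LPS. Ifitm1 (5.85 and 5.73) and Ifitm2 (12.79 and 12.75) were closer, against a median absolute difference of 0.34 log2 over all genes. The difference for Ifitm3 was shared by other interferon-responsive genes: of 22 antiviral effector genes tested (Isg15, the Ifit, Mx and Oas genes and others), 12 were at least 2-fold higher on the array labelled CpG and the list's median was 1.12 log2 higher, against -0.02 for all genes. Of all genes, 3.94% were at least 2-fold higher on that array and 2.14% at least 2-fold lower. Responses of Ifitm3 are therefore given within their own array series as well. Where the array series is a block, LPS and IFNb responses of both genotypes rest on 1 baseline array, the WT unstimulated array labelled LPS.

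Bst2 was called higher with LPS at both 3 and 8 h in BMDM. Bst2 in p50KO cells was 9.29 log2 unstimulated (array labelled CpG) and 10.24, 11.57 and 10.46 at 1, 3 and 8 h of LPS, and in WT cells it was 9.26 unstimulated (array labelled LPS) and 9.38, 10.57 and 11.29 at 1, 3 and 8 h. Every array at 3 and 8 h lay above both WT unstimulated arrays and the p50KO unstimulated array, and the p50KO peak was at 3 h and the WT peak at 8 h, with 1 array each. The p50KO arrays at 3 and 8 h had the lowest and highest summed intensity of the 13 WT and p50KO arrays labelled LPS or IFNb (7430000 and 12450000). Raw Bst2 intensity on them was 1953 and 1579, a smaller step than after normalization. The part of array intensity in the p50KO peak was not tested. In the fit over both genotypes Bst2 was higher by 1.63 ± 0.36 log2 at 3 h (SE, limma adjusted p = 0.00305) and by 1.44 ± 0.36 at 8 h (limma adjusted p = 0.00466). At 1 h its difference was 0.37 ± 0.36 (limma adjusted p = 0.516). LPS moved much of the transcriptome at these times: 3.65% of all genes were called higher at 1 h, 17.4% at 3 h and 19.6% at 8 h, so the calls for Bst2 are not particular to it.

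**Figure D1:**
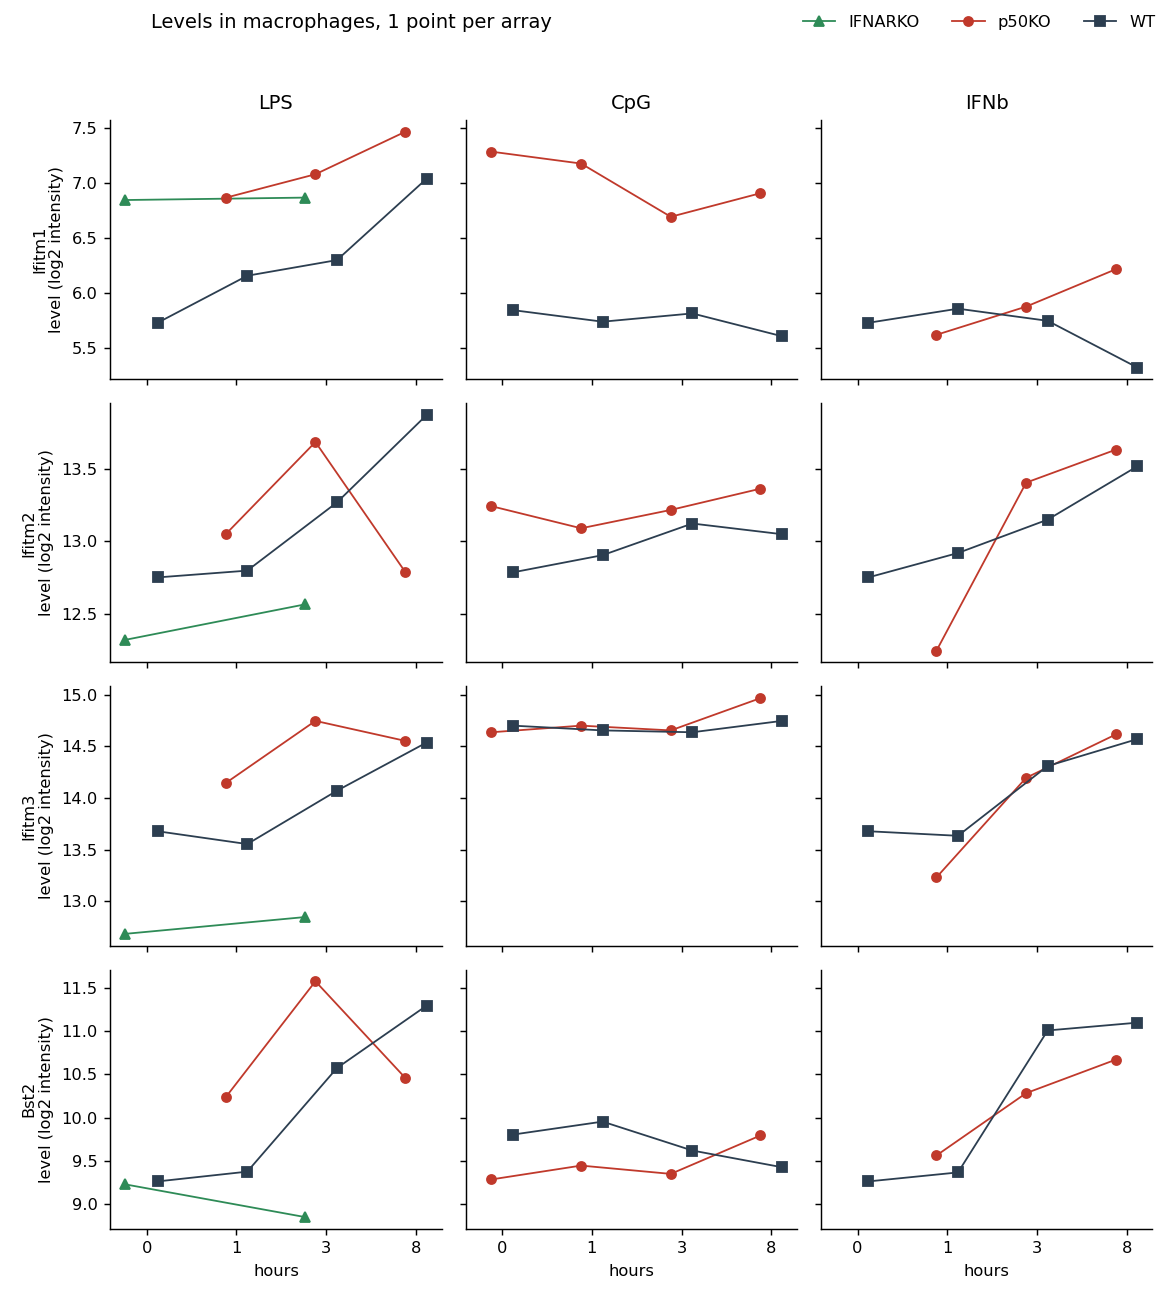
Levels of the 4 genes (log2 intensity, one row of panels each) in BMDM against hours of LPS, CpG or IFNb, with 1 point per array for IFNARKO, p50KO and WT. The p50KO unstimulated array, labelled CpG, is drawn in the CpG panels only. The WT start in the LPS and IFNb panels is the array labelled LPS. Bst2 was at 10.46 or above in both genotypes at LPS 3 and 8 h, Ifitm3 stayed between 14.64 and 14.97 in all CpG panels, and Ifitm1 was higher in p50KO at every CpG and LPS time.

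Ifitm1 was called higher with LPS at 8 h. Ifitm1 in p50KO cells was 7.29 log2 unstimulated (array labelled CpG) and 6.87, 7.08 and 7.47 at 1, 3 and 8 h, and in WT cells it was 5.73 unstimulated (array labelled LPS) and 6.16, 6.30 and 7.04 at 1, 3 and 8 h. Within each genotype the 8 h array was the highest of the LPS arrays, while the p50KO unstimulated array lay above the p50KO arrays at 1 and 3 h. Over both genotypes the 8 h difference was 0.83 ± 0.32 log2 (limma adjusted p = 0.0440), and it was 0.27 ± 0.32 at 3 h. The 8 h call held in 5 of 12 alternatives and was lost in 6, and 1 had no test. That 8 h call did not hold with the array series as a block (1.13 ± 0.43, limma adjusted p = 0.0625) or without either WT unstimulated array (limma adjusted p = 0.108 and 0.114).

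Ifitm2 had its highest WT value at LPS 8 h and Ifitm3 its highest among the WT LPS arrays, but the fit over both genotypes called neither. WT Ifitm2 was 12.80, 13.27 and 13.88 log2 at 1, 3 and 8 h of LPS, above 12.75 on the WT unstimulated array labelled LPS. The p50KO arrays gave 13.05, 13.69 and 12.79, against 13.24 unstimulated (array labelled CpG), so p50KO minus WT was -1.08 at 8 h, in the opposite sense to the earlier times. WT Ifitm3 was 13.56, 14.07 and 14.54, against 13.68 unstimulated, and p50KO Ifitm3 was 14.15, 14.75 and 14.55, against 14.64 unstimulated (array labelled CpG). The fitted difference at 8 h was 0.40 ± 0.29 for Ifitm2 (limma adjusted p = 0.271) and 0.18 ± 0.27 for Ifitm3 (limma adjusted p = 0.607). In that fit the p50KO baseline is the array labelled CpG, as is 1 of the 2 WT baseline arrays. With the block the baseline for both genotypes is the single WT array labelled LPS, so the next values depend on that array. With the array series as a block, Ifitm3 was 0.81 ± 0.28 higher at 8 h (limma adjusted p = 0.0417) and 0.68 ± 0.28 at 3 h (limma adjusted p = 0.116), where 12.3% and 5.91% of all genes were called higher. Without either WT unstimulated array and with no block, Ifitm3 was not called at 8 h (0.39 and -0.12, limma adjusted p = 0.273 and 0.665).

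With IFNb, Bst2 reached values in WT cells close to those with LPS, but short of a call in the fit over both genotypes. After 1, 3 and 8 h of IFNb, Bst2 was 9.56, 10.28 and 10.67 log2 in p50KO cells and 9.37, 11.01 and 11.10 in WT cells, and the WT unstimulated array labelled LPS gave 9.26. Both genotypes were near the resting level at 1 h and above it at 3 and 8 h. The fitted differences were 1.20 ± 0.36 at 3 h (limma adjusted p = 0.0999) and 1.44 ± 0.36 at 8 h (limma adjusted p = 0.101). With the array series as a block they were 1.42 ± 0.50 (limma adjusted p = 0.735) and 1.66 ± 0.50 (limma adjusted p = 0.9995), and neither was called. Without the LPS arrays, where the SE was smaller, both were called, at 1.23 ± 0.23 (limma adjusted p = 0.00648) and 1.47 ± 0.23 (limma adjusted p = 0.00742). The share of all genes called without the LPS arrays is not given, so these calls have no background beside them. On single WT arrays the increases of 3.35-fold at 3 h and 3.57-fold at 8 h compare with 2.52% and 1.33% of all genes that were at least 2-fold higher there.

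Ifitm3 and Ifitm2 had smaller differences with IFNb. Ifitm3 was 13.23, 14.20 and 14.62 log2 at 1, 3 and 8 h of IFNb in p50KO cells and 13.64, 14.31 and 14.57 in WT cells, against 13.68 on the WT unstimulated array labelled LPS. The 2 genotypes ran close together, and the WT increase at 8 h was 0.89 log2. Ifitm2 was 12.24, 13.41 and 13.64 in p50KO cells and 12.92, 13.15 and 13.52 in WT cells, a WT increase of 0.77 at 8 h. In the fit over both genotypes the 8 h differences were 0.64 ± 0.29 for Ifitm2 (limma adjusted p = 0.217) and 0.23 ± 0.27 for Ifitm3 (limma adjusted p = 0.656). With the series as a block the Ifitm3 value was 0.86 ± 0.28, with an unadjusted p of 0.00858 and a limma adjusted p of 1.00, in a fit that called none of the 9158 genes at IFNb 8 h.

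Ifitm1 did not share this course. It was 5.62, 5.88 and 6.22 log2 at 1, 3 and 8 h of IFNb in p50KO cells, and 5.86, 5.75 and 5.33 in WT cells, against 5.73 on the WT unstimulated array labelled LPS. The WT array at IFNb 8 h was the lowest of all 23 BMDM arrays for Ifitm1. Set directly against LPS at the same time, Ifitm1 was lower with IFNb by 1.48 ± 0.35 log2 at 8 h (limma adjusted p = 0.00444), a comparison that uses no unstimulated array, and 16% of all genes were called lower there. The values at 1 h (-0.77 ± 0.35) and 3 h (-0.88 ± 0.35) were not called, where 1.32% and 5.3% of all genes were called lower. For Bst2, Ifitm2 and Ifitm3 the IFNb minus LPS values at 8 h were 0.01 ± 0.39, 0.24 ± 0.31 and 0.05 ± 0.30, and none was called. In all, limma called 0 of 12 gene and time combinations with IFNb against unstimulated cells, where 0% of all genes were called higher at 1 h, 0.546% at 3 h and 0.0546% at 8 h. At an unadjusted p under 0.05 there were 4 of 12, beside 1381, 2028 and 1948 of all 9158 genes at 1, 3 and 8 h in either direction. One of the 4 was a lower value, Ifitm3 at IFNb 1 h (-0.93 ± 0.27, unadjusted p = 0.00396, limma adjusted p = 0.242), which was -0.30 ± 0.28 with the series as a block.

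**Figure D2:**
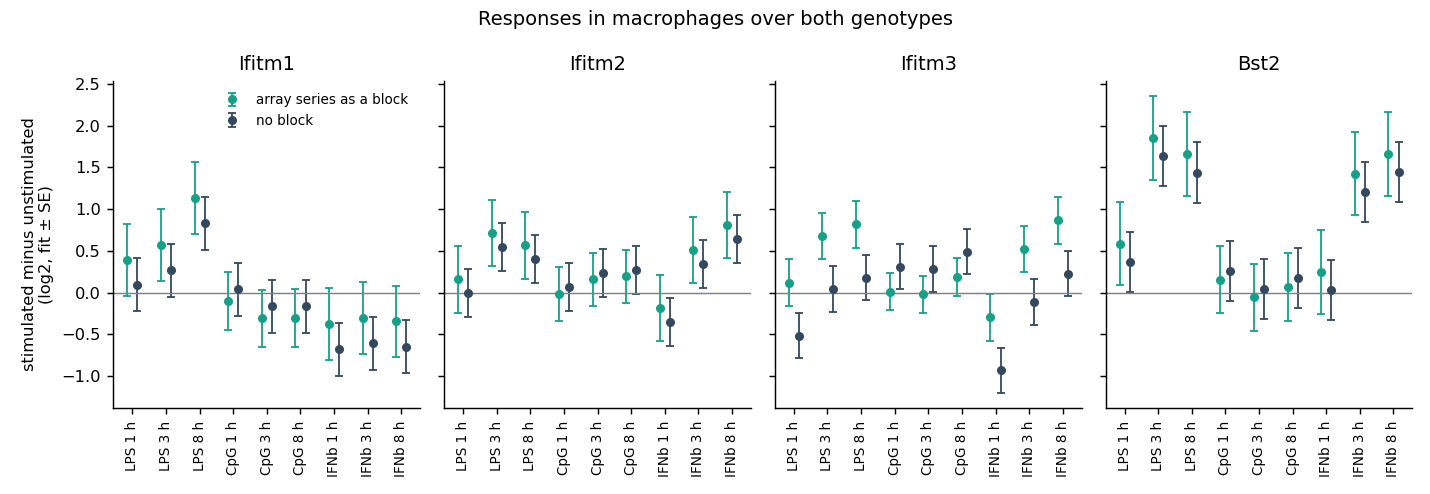
Fitted difference from unstimulated BMDM (log2, ± SE, over p50KO and WT) for each agent and time, with the array series as a block (left marker of each pair) and without it (right marker). Bst2 stands at 1.20 to 1.63 at LPS and IFNb 3 and 8 h without the block. The Ifitm3 value at LPS 8 h is 0.81 with the block and 0.18 without it. With the block, LPS and IFNb values rest on 1 unstimulated array, the WT array labelled LPS.

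No change with CpG was called in any of the 4 genes. Ifitm3 was 14.64, 14.70, 14.65 and 14.97 log2 at 0, 1, 3 and 8 h in p50KO cells. In WT cells it was 14.70, 14.65, 14.64 and 14.75. Its levels at 8 h of LPS and IFNb were close to these, but on arrays of another series with lower summed intensity. Bst2 was 9.29, 9.45, 9.35 and 9.79 in p50KO cells and 9.80, 9.95, 9.62 and 9.43 in WT cells, with opposite directions in the 2 genotypes at 8 h. Limma called 0 of 12 gene and time combinations, with 0 of 12 at an unadjusted p under 0.05, and the fitted differences at 8 h were 0.49 ± 0.27 for Ifitm3, 0.27 ± 0.29 for Ifitm2, 0.17 ± 0.36 for Bst2 and -0.16 ± 0.32 for Ifitm1. The background was low as well, with 0% of all genes called higher at 1 h, 0.131% at 3 h and 0.415% at 8 h. With the array series as a block, Ifitm3 at CpG 8 h was 0.19 ± 0.22. Within the CpG series its change at 8 h was 0.05 in WT and 0.33 in p50KO cells.

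The order of the 10 conditions by fitted level was loose. For Bst2 the conditions split into an upper group (LPS 3 h, IFNb 8 h, LPS 8 h and IFNb 3 h) and a lower group of the other 6. The gap between these groups was 0.84 log2, the single gap of 9 that was over 2 SE. For Ifitm1, LPS 8 h was highest and the 3 IFNb times lowest, and for Ifitm3 the 3 CpG times were highest and IFNb 1 h lowest. For these 2 genes and Ifitm2 no gap between neighbours reached 2 SE, and the high place of CpG for Ifitm3 comes with the high unstimulated array of that series.

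Loss of p50 went with more Ifitm1 in BMDM. Ifitm1 was 7.29, 7.18, 6.70 and 6.91 log2 in p50KO cells and 5.85, 5.74, 5.82 and 5.61 in WT cells at 0, 1, 3 and 8 h of CpG. All 4 p50KO arrays of the CpG series lay above all 4 WT arrays of it. With LPS (values above) p50KO was higher by 0.71, 0.78 and 0.43 at 1, 3 and 8 h, and with IFNb the difference was -0.24, 0.13 and 0.89. Over the 10 matched conditions p50KO was higher in 9, and the fitted difference was 0.80 ± 0.15 log2, or 1.74-fold (limma adjusted p = 0.0321). In this comparison 0.207% of all genes were called higher and 0.459% in either direction.

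The other 3 genes were not called for p50 in BMDM. Ifitm3 differed by 0.16 ± 0.13 log2 (limma adjusted p = 0.565), Ifitm2 by 0.05 ± 0.14 (0.899) and Bst2 by -0.06 ± 0.17 (0.891). Their single conditions scattered to both sides: Ifitm2 ranged from -1.08 at LPS 8 h to 0.46 unstimulated, Ifitm3 from -0.40 at IFNb 1 h to 0.68 at LPS 3 h, and Bst2 from -0.83 at LPS 8 h to 1.00 at LPS 3 h. For Bst2 the p50KO value was higher in 4 conditions and lower in 6. In the LPS series Bst2 was higher in p50KO by 0.86 at 1 h and 1.00 at 3 h and lower by 0.83 at 8 h, and the p50KO array labelled LPS 1 h is the one that resembled WT LPS 3 h. The lowest values of Ifitm2 and Bst2 rest on the same p50KO array, LPS 8 h. That array had the highest summed intensity of the WT and p50KO arrays labelled LPS or IFNb (12450000). Over the early genes it also lay about as near to WT LPS 3 h (0.96) as to WT LPS 8 h (0.90).

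**Figure D3:**
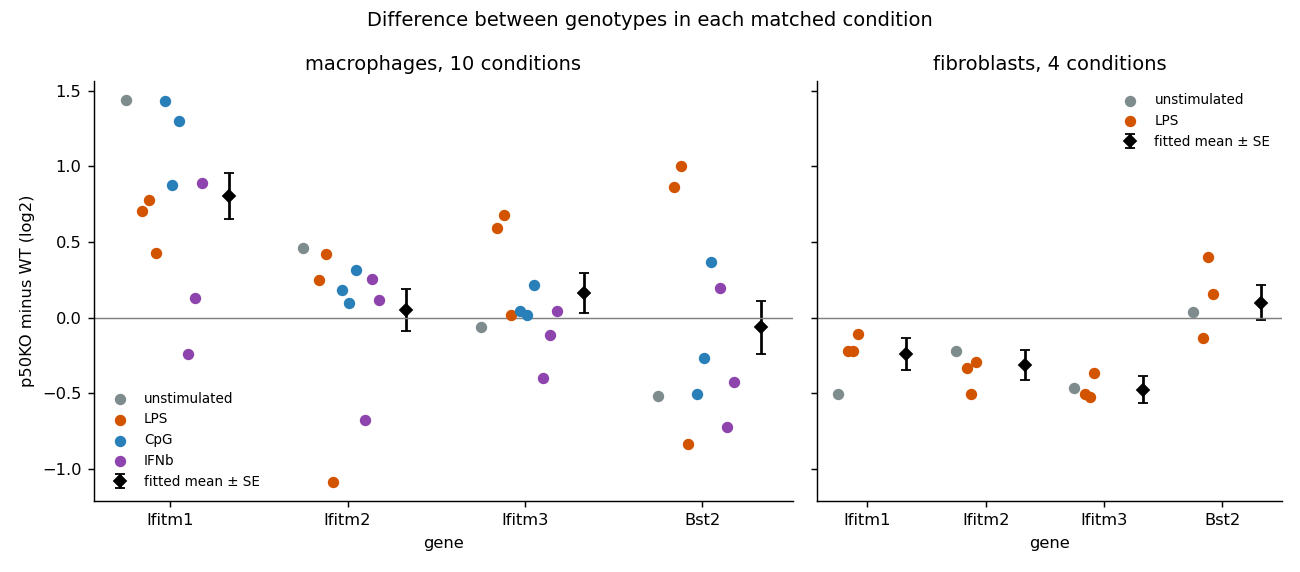
Difference p50KO minus WT (log2) in each matched condition, 10 in BMDM (left) and 4 in MEF (right), coloured by agent, with the fitted mean ± SE as a black diamond. Ifitm1 is above 0 in 9 of 10 BMDM conditions with a mean of 0.80, and Ifitm1, Ifitm2 and Ifitm3 are below 0 in all 4 MEF conditions.

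Fitted for each agent, the Ifitm1 difference between p50KO and WT was 1.20 ± 0.20 log2 with CpG (limma adjusted p = 0.0307), 0.64 ± 0.20 with LPS (limma adjusted p = 0.0914) and 0.26 ± 0.20 with IFNb (limma adjusted p = 1.00). The background was 0.229% of genes called higher with CpG, 2.34% with LPS and 0.0218% with IFNb. The differences between agents were tested themselves and not called: CpG minus IFNb was 0.94 ± 0.28 (unadjusted p = 0.00670, limma adjusted p = 1.00), LPS minus CpG was -0.57 ± 0.28 and LPS minus IFNb was 0.38 ± 0.28. In these 3 contrasts 0.0218%, 0.218% and 0.0437% of all genes were called. Among the arrays labelled CpG the Ifitm1 difference was 1.26 ± 0.11 (limma adjusted p = 0.000657), and among those labelled LPS or IFNb it was 0.45 ± 0.16 (limma adjusted p = 0.501). The difference between these values was not tested, and CpG and its array series cannot be told apart. Without the p50KO array labelled LPS 1 h and its WT partner it was 0.81 ± 0.16 (limma adjusted p = 0.0630), and 0.80 with all probes, dim ones too, in the fit (limma adjusted p = 0.102). With values as normalized by the submitters it was 0.55 ± 0.12 (limma adjusted p = 0.0910).

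Without the interferon receptor, Bst2 was no higher at LPS 3 h than before it. Bst2 was 9.23 log2 unstimulated and 8.85 after LPS in IFNARKO cells, and 9.26 (array labelled LPS) and 10.57 in WT cells. The change with LPS was -0.38 in IFNARKO and 1.31 in WT, an IFNARKO minus WT difference in response of -1.69 log2, or 3.22-fold. A response of at least 2-fold was seen in 5.24% of all genes in IFNARKO and in 6.7% in WT. With 1 array per condition there is no test. A response at least 2-fold smaller in IFNARKO was seen in 2.53% of all genes, and Bst2 was the single member past that fold. The WT responses of Ifitm1, Ifitm2 and Ifitm3 were 0.57, 0.52 and 0.39 log2, all under 2-fold. These genes could pass that fold only with a fall in IFNARKO, so it cannot compare their dependence on the receptor. Their IFNARKO responses were 0.02, 0.245 and 0.16.

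Ifitm3 was lower on both IFNARKO arrays than on any WT array. It was 12.69 log2 unstimulated and 12.85 after LPS in IFNARKO cells, and 13.68 (array labelled LPS) and 14.07 in WT cells, and the 2 IFNARKO arrays were the lowest of all 23 BMDM arrays for this gene. The difference from WT was -0.99, or 1.99-fold lower, unstimulated and -1.22, or 2.33-fold lower, at LPS 3 h, where 3.87% and 5.99% of all genes were at least 2-fold lower. The other WT unstimulated array, labelled CpG, was at 14.70, so the 2 WT arrays lay as far apart (1.02) as the unstimulated genotypes. The response to LPS was 0.16 in IFNARKO and 0.39 in WT, a difference of -0.23 that turned to 0.28 with the mean of both WT unstimulated arrays as baseline. Ifitm2 was also lower in IFNARKO, by 0.43 unstimulated (12.32 against 12.75 in WT) and by 0.71 at LPS 3 h (12.56 against 13.27 in WT). Ifitm1 went the other way: it was 6.85 and 6.87 in IFNARKO, against 5.73 and 6.30 in WT, which is 2.17-fold higher unstimulated, where 3.99% of all genes were at least 2-fold higher.

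**Figure D4:**
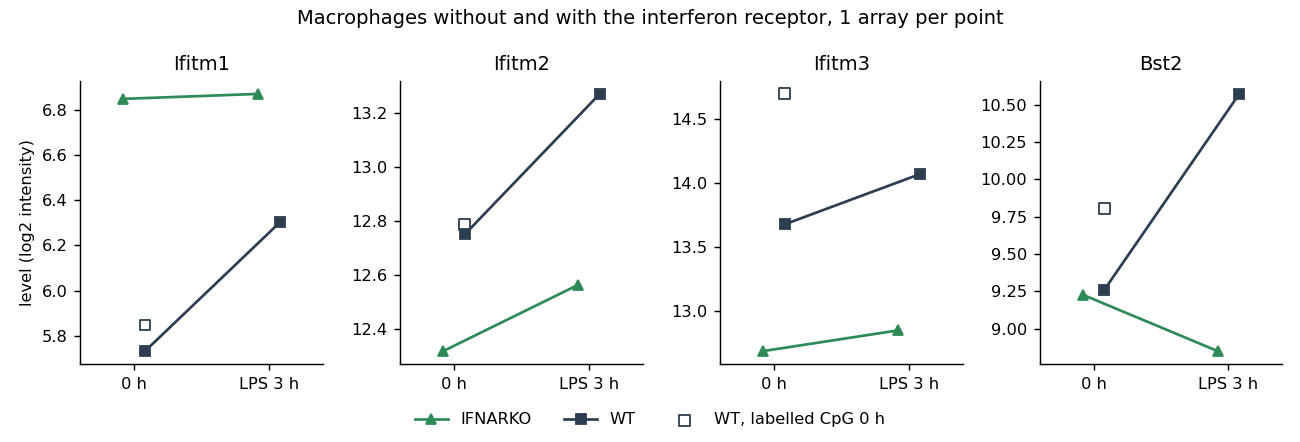
Levels (log2 intensity, each gene on its own scale) in IFNARKO and WT BMDM, unstimulated and at LPS 3 h, with 1 array per point and the WT unstimulated array labelled CpG as an open square. Bst2 ends at 8.85 in IFNARKO and 10.57 in WT, and Ifitm3 is lower in IFNARKO at both points (12.69 and 12.85) than in WT (13.68 and 14.07).

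In MEF, LPS raised all 4 genes by 8 h. Bst2 was 13.23, 13.09, 13.92 and 14.62 log2 at 0, 1, 3 and 8 h in p50KO cells and 13.20, 13.23, 13.52 and 14.47 in WT cells. Ifitm2 was 12.82, 12.78, 13.15 and 13.89 in p50KO cells and 13.04, 13.11, 13.66 and 14.19 in WT cells. Ifitm1 was 13.92, 14.12, 14.57 and 15.01 in p50KO cells and 14.43, 14.34, 14.79 and 15.12 in WT cells. In each gene and genotype the 8 h array was the highest and the 3 h array next. The fitted differences at 8 h were 1.30 ± 0.15 for Bst2 (limma adjusted p = 0.00437), 1.17 ± 0.14 for Ifitm2 (0.00418), 1.03 ± 0.12 for Ifitm3 (0.00418) and 0.94 ± 0.14 for Ifitm1 (0.0106). Of all genes tested in MEF, 6.43% were called higher at 8 h. At 3 h the 4 differences were 0.39 to 0.55, with limma adjusted p of 0.0942 to 0.168 and unadjusted p under 0.05 for all 4, and at 1 h they were -0.08 to 0.10. The share of all genes called higher was 3.12% at 3 h and 0.176% at 1 h.

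**Figure D5:**
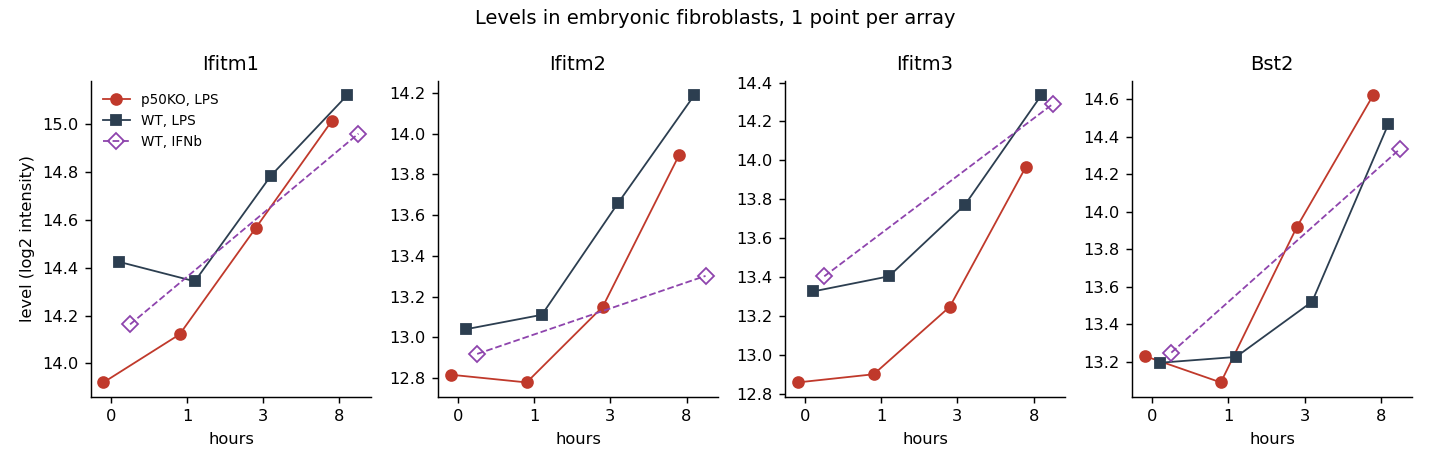
Levels of the 4 genes (log2 intensity, each on its own scale) in MEF against hours of LPS for p50KO and WT cells, and for the WT pair of the IFNb series (open diamonds), with 1 point per array. All curves end above their start, and Ifitm2 and Ifitm3 are lower in p50KO than in WT at each LPS time.

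IFNb given to WT MEF for 8 h, on 1 array set against 1 unstimulated array of the same series, had the same direction in all 4 genes, with no test. Bst2 was 14.33 log2 with IFNb and 13.25 without, Ifitm3 14.29 and 13.41, Ifitm1 14.96 and 14.16, and Ifitm2 13.30 and 12.92. These are increases of 2.12-fold, 1.84-fold, 1.74-fold and 1.30-fold. At least a 2-fold increase was seen in 4.09% of all genes, and Bst2 was the single member past it.

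Loss of p50 in MEF went with less Ifitm3 and Ifitm2. Ifitm3 was 12.86, 12.90, 13.25 and 13.97 log2 at 0, 1, 3 and 8 h of LPS in p50KO cells and 13.33, 13.40, 13.77 and 14.33 in WT cells. The p50KO array was the lower one in all 4 matched conditions, by 0.37 to 0.52. The fitted difference was -0.48 ± 0.09 for Ifitm3 (limma adjusted p = 0.00618) and -0.31 ± 0.10 for Ifitm2 (limma adjusted p = 0.0388), against a median over all genes of -0.06. For Ifitm1 it was -0.24 ± 0.11 (limma adjusted p = 0.0948), also lower in 4 of 4 conditions, and for Bst2 0.10 ± 0.11 (limma adjusted p = 0.488). This background was high: 54.5% of all genes were called and 28.9% called lower, and 2 of 4 members called is near it. The p50KO MEF arrays had 11735 to 12389 probes above background and the WT arrays 8266 to 10089, ranges that do not overlap. Of the 3 macrophage markers tested in MEF, 1 was called lower in p50KO and the median difference was -0.54, with summed levels of the 5 on the array of 11.77 to 12.38 log2 on p50KO arrays and 11.81 to 13.62 on WT arrays. The part of either in the p50 difference was not tested. Without the WT unstimulated array of the LPS series, the Ifitm2 call was lost (limma adjusted p = 0.0730), and without that of the IFNb series Ifitm1 was called (limma adjusted p = 0.0310).

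Among the other Ifitm genes, Ifitm6 lies beside Ifitm3 on chromosome 7 and was measured on all 23 BMDM arrays. It differed by 0.32 ± 0.16 log2 between p50KO and WT BMDM (limma adjusted p = 0.344) and by 0.51 ± 0.33 at LPS 8 h (limma adjusted p = 0.215), and with the array series as a block the LPS 8 h value was 1.19 ± 0.37 (limma adjusted p = 0.0274). In MEF its probe was above background on 4 of 10 arrays: p50KO at LPS 3 h (5.38 log2) and 8 h (7.28), WT at LPS 8 h (6.95) and WT at IFNb 8 h (6.90). Ifitm10 in MEF was above background on the 4 p50KO arrays, at 5.29 to 5.56, and on none of the 6 WT arrays. Its raw intensities overlapped, at 64 to 70.1 on the p50KO arrays and 60.9 to 81.1 on the WT arrays. Raw Ifitm6 intensity at LPS 3 h was 61.7 in p50KO and 61.6 in WT. More probes were above background on the p50KO MEF arrays in general, so detection in 1 genotype only is not a difference in expression. Since Ifitm6 on the unstimulated MEF arrays and Ifitm10 on the WT ones were not above background, no difference is given for either. Ifitm5 was above background on 2 of 23 BMDM arrays, and no value is given for Ifitm7.

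The 4 genes were set beside lists of related genes. Antiviral effectors in BMDM moved more than the 4 genes with LPS: 21 of 22 tested were called higher at 3 h and all 22 at 8 h, with medians of 2.57 and 3.43 log2 against -0.08 and -0.07 for all genes. Mx1, a GTPase that blocks viral replication, was higher by 6.28 ± 1.09 at 8 h and Isg15, a ubiquitin-like modifier, by 5.64 ± 0.70. For p50KO against WT in BMDM, limma called 0 of the 22, with 17 at an unadjusted p under 0.05 (1407 of all 9158 genes), all 22 were higher in p50KO, and the median was 0.88 against -0.02 for all genes. The Ifitm1 value of 0.80 lies near that median, and those of Ifitm2, Ifitm3 and Bst2 lie below it. By agent they were less alike. The list's medians were 1.31 with LPS, 0.90 with CpG and 0.10 with IFNb, and Ifitm1 was 0.64, 1.20 and 0.26. The differences between the list and Ifitm1 were not tested. Of the interferon pathway genes, 8 of 10 were called higher at LPS 8 h, with Irf7, which amplifies interferon production, at 4.05 ± 0.85. Limma called 0 of those 10 for p50, with 4 at an unadjusted p under 0.05. All 9 NF-kB subunit and inhibitor genes tested were called higher at LPS 8 h, with a median of 2.55, and at LPS 3 h the median response of this list was 3.48 in IFNARKO and 3.46 in WT. The antiviral effectors had a median LPS 3 h response of 0.53 in IFNARKO and 2.40 in WT. The response was at least 2-fold smaller in IFNARKO for 15 of 22, as it was for Bst2. The Ifitm genes had WT responses under 2-fold, so this fold cannot place them beside the list. Before LPS, 11 of 22 antiviral effectors were at least 2-fold lower in IFNARKO than on the WT array labelled LPS and the median was -0.95, close to the -0.99 of Ifitm3. In MEF 17 of 18 were called higher at LPS 8 h, and all 18 were at least 2-fold higher with IFNb 8 h, with a median of 4.19.

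Across the 23 BMDM arrays, which share series and conditions, the members did not vary as one group. Pearson correlations were 0.71 between Ifitm2 and Ifitm3, 0.70 between Ifitm2 and Bst2 and 0.45 between Ifitm3 and Bst2, and 0.02 to 0.14 between Ifitm1 and the other 3. After centring the 21 WT and p50KO arrays within their array series, Ifitm3 and Bst2 correlated at 0.87 and Ifitm1 with the other 3 at 0.22 to 0.39. Over the 10 MEF arrays all 6 pairs correlated at 0.81 to 0.93. The genes most like each member in BMDM were Ly6e (0.94), Ifi27l2a (0.89), Trim30a (0.87), B2m (0.86) and Lgals3bp (0.85) for Ifitm3, and Mov10 (0.92), Phf11d (0.90), Psmb8, Rab29 and Tspo (0.90 each) for Bst2. Those most like Ifitm2 were Cox19 (0.90), AU022252, Slc15a4, Tmem134 and Ppp1r11 (0.86 to 0.88), and those most like Ifitm1 were Wfdc18 (0.85), Terf2ip, Wfdc17, Lims1 and Ube2d3 (0.77 to 0.80). In MEF they were Tspo, Amn and Dtwd1 for Ifitm1 (0.98 to 0.99), Ikbke, Clip1 and Kyat3 for Ifitm2 (0.97 to 0.98), Sppl2a, Pfkp and Tmbim6 for Ifitm3 (0.97 to 0.99), and B2m, Epsti1 and Slc10a6 for Bst2 (0.98 each).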

How the data were processed

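The deposited tables hold the authors' bead intensity per probe, not normalized, and a detection p-value for it, as the file headers say (deposited by the authors). The arrays were read with BeadStudio, per the submitters' processing notes. A second deposited table of intensity, normalized by the authors by a method not given in the sources used here, served as an alternative. Intensities were background-corrected with limma 3.58.1 (normexp, background from the detection p-values, offset 16), quantile normalized within each cell type and taken to log2. Probes were named from the platform annotation (23978 BMDM and 20974 MEF probes had 1 symbol), and the brightest probe stood for a gene. Genes with detection p under 0.01 on at least 2 arrays were tested with lmFit and eBayes (two-sided, R 4.3.3), condition as a factor plus genotype, Benjamini-Hochberg over all genes tested, called under 0.05. The fit had 10 residual degrees of freedom in BMDM and 4 in MEF, so the number of arrays limits the precision. The p50 fits were run on simulated data with independent noise between arrays. That noise held no array series or shared culture effect, so the run does not bear on either. The members and lists were chosen with earlier results of these data known. Named genes are the members, other Ifitm genes, the genes with the highest Pearson correlation with each member (5 in BMDM, 3 in MEF) and, for each list, at most 4 with the largest differences. Alternatives changed the background offset, the normalization, the filter, the probe, the series block and the arrays used. IFNARKO and the MEF IFNb pair had 1 array per condition and no test.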

Additional observations from a re-analysis of the deposited data

Results flagged for a closer look

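Bst2 at LPS 3 h had changes of opposite sign in the 2 BMDM genotypes compared, with 1 array per condition: the change from unstimulated was -0.38 log2 in IFNARKO cells and 1.31 in WT cells. The IFNARKO change was smaller than the residual SD of Bst2 in the fit of WT and p50KO arrays (0.446 log2). It was also smaller than the gap between the 2 WT unstimulated arrays (0.541), so a fall in IFNARKO cannot be told from no change. The difference was not tested. In the same cells 8 of 22 antiviral effectors were at least 2-fold higher after LPS in IFNARKO and 22 of 22 in WT.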

How the results depend on the processing

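The LPS 3 h difference of Bst2 in BMDM kept its direction in 11 of 11 alternatives (1.31 to 1.91) and its call in each of them but the untested one with WT arrays only. The p50 difference of Ifitm3 in MEF kept its direction and call in 7 of 7 (-0.484 to -0.465). In the main fit 54.5% of all genes were called for p50 in MEF, so a kept call is not particular to Ifitm3. The cause of the exceptions below was not tested, unless the setting itself removes arrays or adds genes. For p50KO minus WT in BMDM, Ifitm1 lost its call with the submitters' values (0.55), with no filter on dim probes (0.80, more genes tested), without the pair labelled LPS 1 h (0.81, and 0.78 with the series block added after seeing the data) or LPS 3 h (0.81), without all LPS arrays (0.87), with LPS or IFNb arrays only (0.45), without stimulated CpG arrays (0.64) and without unstimulated arrays (0.70). Its 2 probes at background, tried after seeing the data, gave -0.13 and 0.04. The LPS 8 h call of Ifitm1 in BMDM was lost in 6 of 12 alternatives, with values of 0.48 to 1.31 over all 12. Not called under any setting, Bst2 turned to 0.012 with LPS or IFNb arrays only and to 0.039 without IFNb arrays, and Ifitm2 to -0.12 with LPS or IFNb arrays only, -0.012 without stimulated CpG arrays and -0.014 without unstimulated arrays. With CpG the number of members called for p50 was 0 of 4 with no filter, in place of 1. With IFNb the calls were 0 to 2 of 12 when a WT unstimulated array was left out, 1 without the pair labelled LPS 3 h and 2 without all LPS arrays. Leaving out a WT unstimulated array gave Ifitm3 responses of -0.075 to 0.435 at IFNb 8 h and -0.123 to 0.387 at LPS 8 h. In MEF, leaving out a WT unstimulated array gave 4 to 7 calls of 12 with LPS, and p50KO minus WT of -0.26 to -0.20 for Ifitm1 and -0.34 to -0.31 for Ifitm2. For IFNb 8 h in WT MEF, the submitters' values gave 0.67 for Ifitm1, 0.57 for Ifitm2 and 0.99 for Ifitm3, and both unstimulated arrays as baseline gave 0.67 for Ifitm1. With both WT unstimulated arrays as baseline, the IFNARKO minus WT difference in the Ifitm3 response was 0.28 in place of -0.23, the opposite direction. Genes called for p50 in BMDM numbered 42, and 21 with no filter and 28 with the submitters' values. No paired analysis was possible because the labels give no replicate numbers shared between groups, beyond the matching by condition that the p50 fits already contain. Signal over background limits the Ifitm1 values in BMDM and the Ifitm6 and Ifitm10 values in MEF.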
